A study of Drosophila melanogaster with 6 samples.

Results

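The CD36-like scavenger receptors described here are the 7 genes santa-maria, ninaD, crq, emp, pes, Snmp1 and Snmp2, out of 11982 genes with a named probe set. They were taken by name, as the probe sets whose array annotation gives one of these symbols or a synonym of the same gene, which found all 7 genes with 8 of the 18769 probe sets tested (2 for Snmp2, 1 for each of the others). The genes were chosen by name with their mutant and control signals in this same comparison known. Their levels and fold changes are therefore a description, and no test supports them. Adjusted p-values of these genes enter only where calls are counted, lost or marked in a figure, and these too are a description. RNA came from the larval fat body, a tissue that stores nutrients and acts much as liver and fat tissue do in mammals. The mutant group, delg613/Df(3R)ro80b, had 3 samples and the control group, +/Df(3R)ro80b, had 3. All 6 samples carried the deletion Df(3R)ro80b on 1 chromosome, opposite delg613, a stop codon allele of delg (Ets97D), in the mutant and opposite a wild type chromosome in the control. The labels give 60 fat bodies from larvae of 6 days for every sample and call these larvae mutant in both groups. The study places the larvae at late L3 or at wandering. For its other experiments it took delg mutants at 6 days as mid-third instar larvae, and controls of that stage at an earlier day. A difference in developmental age between the groups therefore cannot be told apart from the genotype. The comparison addressed which transcripts of the fat body depend on Delg, the fly homologue of the DNA-binding subunit of mammalian NRF-2/GABP.

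Proteins of the CD36 family cross the membrane near both of their ends and hold a large domain outside the cell, or in the lumen of a vesicle, that binds lipids and lipid-carrying particles. They take up fatty acids, carotenoids and lipoproteins, and some bind dying cells or bacteria. In flies, santa-maria and ninaD are needed for the uptake of the carotenoids from which the visual pigment is made, crq was described as a receptor of macrophages for dying cells, pes takes part in the uptake of mycobacteria by cultured cells, emp acts in endocytosis in epithelia, and Snmp1 and Snmp2 belong to the sensilla of the olfactory system, where Snmp1 is needed to sense a pheromone.

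Expression was measured on Affymetrix arrays as MAS5 signals, which are linear intensities scaled to the same trimmed mean on each array. The median signal of an array lay between 55.5 and 75.5, and a signal below it is called low here. Of the fat body markers 7 of 10 could be read, among them Lsp2, a larval serum protein, at 57153 to 75546. The summed signal of these 7 was 217552 to 251546 in the mutant and 295998, 190506 and 287431 in control replicates 1, 2 and 3. Control replicate 2 stood apart: the summed signal of 18 genes known from the end of larval life was 53431 there and 312666 to 451490 in the other 5 samples. The summed signal of 9 salivary gland markers was 24286.5 there and 200224 to 330442 in the other 5 samples. These lists share genes, among them the glue protein gene Sgs1, so their sums are not separate observations. What part salivary gland tissue or larval stage had in this gap was not tested. Mutant replicate 1 also stood apart, with a summed signal of 54072 over 9 midgut markers, against 172 to 3453 in the others. The summed signal of 9 hemocyte markers was 7126 to 11045 in the mutant and 4866 to 6851 in the control. The probe set of delg (Ets97D) gave 71.7, 87.1 and 91.9 in the mutant and 135, 122 and 213 in the control. All mutant samples were lower, but the log2 fold change of mutant over control, -0.87 with a standard error (SE) of 0.38, did not pass the test (limma adjusted p 0.267). A stop codon need not remove the transcript, so this probe set does not check the labels.

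Across the 7 receptor genes, santa-maria, pes and emp were higher in the delg mutant with no overlap of the samples, crq overlapped between the genotypes with similar means, and ninaD, Snmp1 and Snmp2 were at low or scattered signals in which the genotypes overlapped. With limma, a linear model fitted to all probe sets, 3 of the 7 were past the threshold of 0.05 on the adjusted p as higher and 0 as lower. Over all genes 4.45% were past it as higher (533 genes), 3.75% as lower (449 genes) and 8.2% in either direction. With each array centred on its median these counts were 686 and 287, and centring added 0.144 to every log2 fold change. The median log2 fold change of the 7 genes was 0.09, beside -0.09 for all genes. In 3 of the 7 every mutant sample lay above every control sample, which held for 14.5% of all genes, and in 0 of the 7 every mutant sample lay below, which held for 15.6%. Since the genes were picked on this contrast, nothing is read from these counts.

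**Figure D1:**
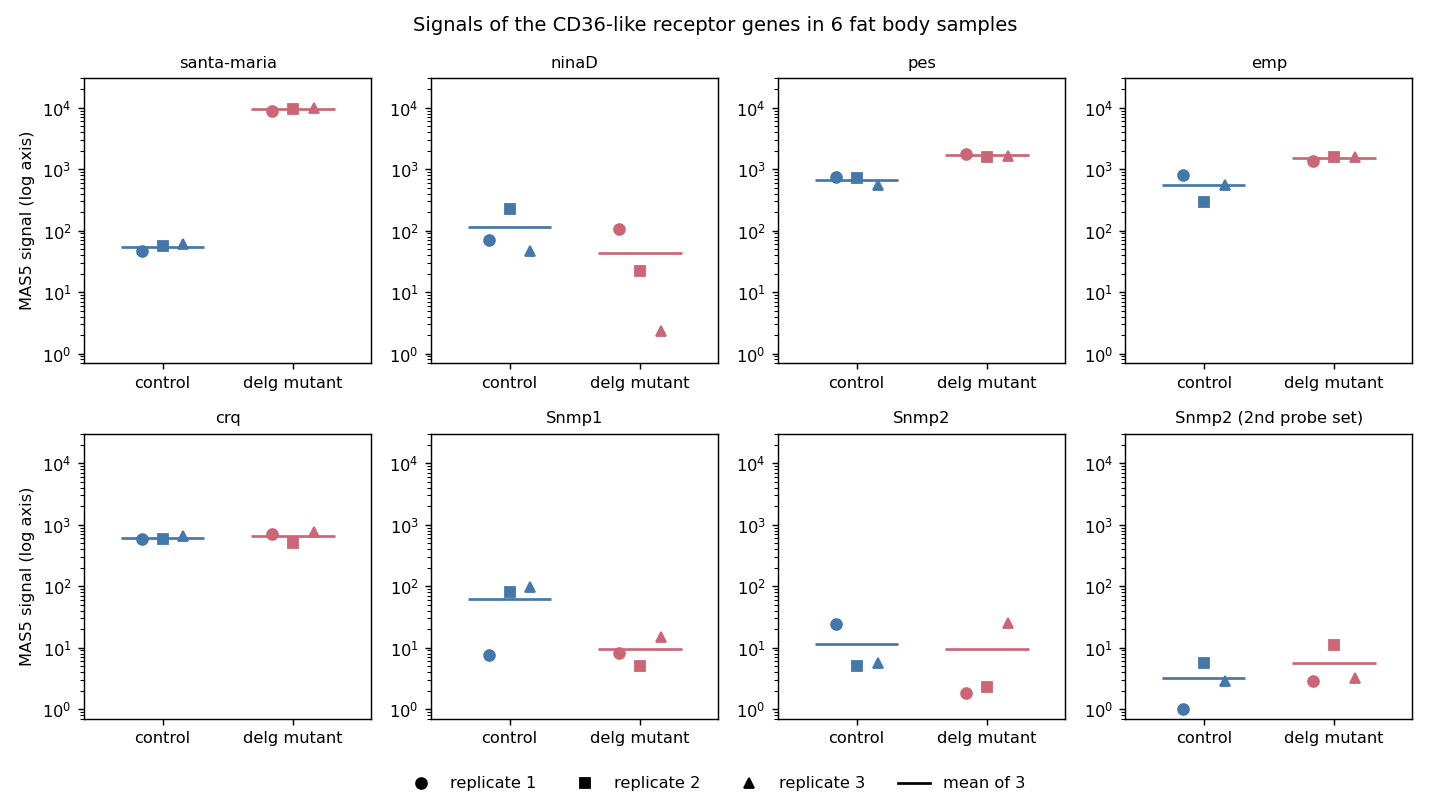
MAS5 signal (log axis) of the 8 probe sets of the 7 receptor genes, with 1 point for each sample, a marker shape for each replicate number and a line at the mean of 3. The mutant samples of santa-maria sit between 8778 and 9955, far above the controls at 46.6 to 61.3, and those of pes and emp also lie above all their controls, while the genotypes overlap in the other 5 panels.

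The carotenoid receptor gene santa-maria was low in the control and high in the mutant. It gave 8778, 9545 and 9955 in mutant replicates 1, 2 and 3 and 46.6, 55.8 and 61.3 in control replicates 1, 2 and 3. All 3 controls were below the median of their own array, and the mutant samples stayed close together, the highest being 1.13 times the lowest. The mutant mean was 9426 ± 597 (SD, n = 3), the control mean was 54.6 ± 7.46 (SD, n = 3), and the log2 fold change was 7.44 (SE 0.20), a ratio of 174 between the geometric means and the second highest of all genes. Because the control signals were low, the size of the fold depends on what is added to them, and with 100 added to every signal the log2 fold change was 5.94. Control replicate 2 lay between the other 2 controls for this gene, with a log2 fold change of 7.46 without it, and without mutant replicate 1 it was 7.49.

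The other carotenoid receptor gene, ninaD, which is known from the midgut, showed no such difference. It gave 107, 22.1 and 2.29 in the mutant and 70.1, 223 and 45.9 in the control, in the order of the replicates. The genotypes overlapped, the samples of the mutant alone spanned 46.8-fold, and 3 of the 6 signals were below the median of their array. The log2 fold change of -2.35 had an SE of 1.33 and lay between -3.65 and -0.88 when 1 sample was left out. The highest of the mutant signals, 107, was in mutant replicate 1, the sample with the midgut transcripts, and without it the value was -3.65. The highest of all 6 signals, 223, was in control replicate 2, where the summed signal of the midgut markers was 285. Control replicate 3, with a midgut sum of 3453, gave 45.9. The part of midgut tissue in the ninaD signal was not tested.

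Genes that act on carotenoids and retinoids after their uptake did not show the change of santa-maria. Of 5 such genes that could be read, 0 rose and 0 fell by limma after adjustment, 0 did so at an unadjusted p under 0.05, and 0 did so by the methods' test, two-tailed with equal variances, after adjustment. The one with the smallest p was pinta, a retinoid-binding protein, at 364 to 382 in the mutant and 163 to 332 in the control (log2 fold change 0.56, SE 0.31, limma adjusted p 0.388). Signals of ninaB, the enzyme that cleaves carotenoids, were low, from 4.54 to 39.9 over all 6 samples, and overlapped between the genotypes. Those of Pdh and rdhB were also below the median of their array in all 6 samples. A fall of ninaB, Pdh or rdhB could therefore hardly be seen on these arrays. Carotenoids travel in the hemolymph on lipoproteins, and all 5 genes listed for lipoproteins and their receptors had a log2 fold change below 0, with a median of -0.57, while 0 rose and 0 fell by limma or, after adjustment, by the methods' test. At an unadjusted p under 0.05, 1 was lower, Apoltp, a lipid transfer particle, at 4750 to 5297 in the mutant and at 5723, 20299 and 9873 in the control samples (log2 fold change -1.05, SE 0.40, limma adjusted p 0.193), where control replicate 2 was the highest. Its log2 fold change was -0.57 without control replicate 2, and -1.48 without control replicate 1, where it passed the test (limma adjusted p 0.0349). Without control replicate 2 the median of these 5 genes was -0.26.

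The gene pes, which acts in the uptake of mycobacteria, gave 1793, 1609 and 1653 in the mutant and 747, 709 and 558 in the control. Both groups were tight, the highest sample being 1.11 times the lowest in the mutant and 1.34 times in the control, with a clear gap between them. The mutant mean was 1685 ± 96.4 (SD, n = 3), the control mean was 671 ± 100.1 (SD, n = 3), and the log2 fold change was 1.34 (SE 0.19), a ratio of 2.53. Left out in turn, the 6 samples gave log2 fold changes between 1.21 and 1.42. For this gene, control replicate 2 lay within the range of the other controls.

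The gene emp, known from endocytosis in epithelia, gave 1342, 1572 and 1594 in the mutant and 800, 289 and 552 in the control. The mutant samples lay together, while the controls spanned 2.77-fold with control replicate 2 the lowest, at 0.427 of the mean of the other controls. The mutant mean was 1503 ± 140 (SD, n = 3), the control mean was 547 ± 256 (SD, n = 3), and the log2 fold change was 1.57 (SE 0.35), a ratio of 2.98. Without control replicate 2 it was 1.17. It counted among the 3 genes past the threshold with all 6 samples, and dropped out without mutant replicate 1, 2 or 3 or control replicate 3 (limma adjusted p 0.0935, 0.122, 0.145 and 0.0997), which left 2.

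The macrophage receptor gene crq was above the median of every array and showed no difference beyond the spread of its samples. It gave 702, 509 and 776 in the mutant and 577, 592 and 668 in the control. The lowest and the highest of the 6 were both mutant samples, so that the genotypes overlapped throughout. The log2 fold change was 0.09 (SE 0.23), between -0.03 and 0.27 when 1 sample was left out and -0.000740 after quantile normalization.

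Other transcripts known from hemocytes, the blood cells in which crq was described, lay higher in the mutant in part. Of 9 hemocyte markers 2 rose and 0 fell by limma, 6 had a log2 fold change above 0 and the median was 1.46. The 3 below 0 were the prophenoloxidase genes PPO1 (-0.79) and PPO2 (-0.69) and the matrix protein gene Ppn (-0.44), none of which passed the test (limma adjusted p 0.532, 0.492 and 0.465). Without control replicate 2 the median was 0.80, 3 rose and 1, PPO1, fell. With 1 of the other samples left out 0 to 3 rose, 0 of them without mutant replicate 1 or 3 or control replicate 3. The lowest signal of any probe set tested was 0.12. A signal above 0 therefore does not by itself show that a marker was expressed. The phagocytic receptor gene eater had signals of 541, 213 and 900 in the mutant and 79.2, 3.62 and 17.0 in the control (log2 fold change 4.79, SE 1.06, limma adjusted p 0.0340). Pxn, a peroxidasin, had signals of 363, 332 and 610 in the mutant and 201, 153 and 111 in the control (log2 fold change 1.47, SE 0.35, limma adjusted p 0.0438). Neither gene passed once mutant replicate 1, 2 or 3 or control replicate 3 was left out (limma adjusted p up to 0.161 for eater and 0.192 for Pxn). The call of Pxn also rested on the brighter of its 2 probe sets, since their mean gave a log2 fold change of 0.25 (limma adjusted p 0.917). Hml, He and NimC1 had log2 fold changes of 1.46, 1.65 and 1.53 and did not pass the test (limma adjusted p 0.0703, 0.102 and 0.234), although in each every mutant sample lay above every control. In these bulk samples more hemocytes, more RNA per hemocyte and expression in other cells, such as those of the fat body, cannot be told apart. What part hemocytes had in the signals of crq, pes or emp was not tested.

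**Figure D2:**
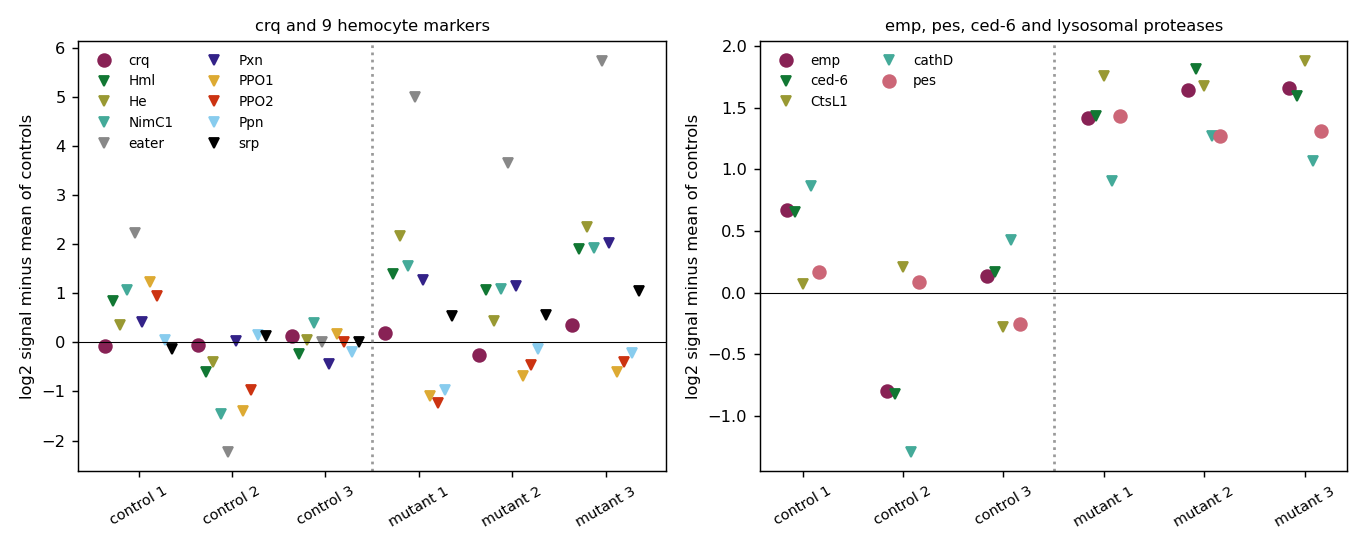
Log2 signal of each sample minus the mean of the 3 controls, for crq with the 9 hemocyte markers (left) and for emp and pes with ced-6 and the lysosomal proteases CtsL1 and cathD (right), with circles for the receptor genes and triangles for the others. In the left panel crq stays near 0 in all 6 samples, eater, Hml, He, NimC1, Pxn and srp lie higher in the mutant, and PPO1, PPO2 and Ppn do not, while in the right panel emp, ced-6 and cathD are lowest in control replicate 2 and pes and CtsL1 are not.

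Receptors for dying cells and bacteria act with adaptors and with receptors of other families. Of 6 genes for the engulfment of dying cells that could be read, 1 rose and 0 fell, with a median log2 fold change of 0.30. It was ced-6, the adaptor of the receptor Draper, at 13592, 17634 and 15142 in the mutant and 7922, 2835 and 5646 in the control (log2 fold change 1.61, SE 0.35, limma adjusted p 0.0329). Like emp, ced-6 was lowest in control replicate 2, and it did not pass once mutant replicate 1, 2 or 3 or control replicate 3 was left out (limma adjusted p up to 0.129). Of 14 genes listed with the other phagocytic and scavenger receptors, not all of them shown here to be receptors, 2 rose and 0 fell, with a median of 0.37. One was eater, which is also among the hemocyte markers, and the other the Nimrod gene NimB4, at 3211 to 4195 in the mutant and 1691 to 2491 in the control (log2 fold change 0.86, SE 0.21, limma adjusted p 0.0467, up to 0.168 without 1 sample). The Nimrod receptor gene NimC2, named after its values were seen, had 21307 to 24872 in the mutant and 6710, 7.92 and 1881 in the control samples. Control replicate 2 was far below the others, and NimC2 did not pass the test with it (log2 fold change 5.66, SE 2.08, limma adjusted p 0.172) and passed without it (log2 fold change 2.73, limma adjusted p 0.00834). The number of these 14 genes that rose was 3 without control replicate 2, it was 0 once any mutant sample or control replicate 3 was left out, and 1, NimC3, fell without control replicate 1.

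In mammals the family includes a membrane protein of lysosomes, and CD36 itself takes up fatty acids. Of 6 lysosomal genes that could be read 1 rose and 0 fell, and the median log2 fold change was 0.62. It was CtsL1, a cysteine protease, at 12525, 11823 and 13609 in the mutant and 3886, 4266 and 3052 in the control (log2 fold change 1.77, SE 0.19, limma adjusted p 0.00171, up to 0.0195 without 1 sample). The aspartic protease gene cathD, named after its values were seen, had 37995 to 48846 in the mutant and 36765, 8271 and 27278 in the control samples, with control replicate 2 again the lowest (log2 fold change 1.08, limma adjusted p 0.288, and 0.44 on the log2 scale without that sample). The median of the 6 genes was 0.27 without it. Of 7 genes for the uptake of fatty acids and sterols 0 rose and 1 fell, with a median of -0.07. It was bgm, an acyl-CoA synthetase of very long chains, which fell by 2.06 on the log2 scale (SE 0.46, limma adjusted p 0.0353, up to 0.153 without 1 sample) and was highest, at 8008, in control replicate 2. Without control replicate 1, 1 gene of this list rose (hll, limma adjusted p 0.0314) and 2 fell (bgm, and Acsl at a limma adjusted p of 0.0139). After quantile normalization 2 fell, and without mutant replicate 1, 2 or 3 or control replicate 3 the count was 0 in both directions.

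The sensory membrane protein genes were at the low end of these arrays. Snmp1 gave 8.29, 5.03 and 14.8 in the mutant and 7.58, 80.2 and 96.3 in the control. Control replicates 2 and 3 were the highest, while control replicate 1 lay among the mutant samples, so that the genotypes overlapped. The log2 fold change was -2.19 (SE 1.12), between -3.37 and -1.53 when 1 sample was left out. The 2 probe sets of Snmp2 were below the median of the array in all 6 samples. The brighter had 1.84, 2.25 and 24.9 in the mutant and 24.0, 5.02 and 5.54 in the control (log2 fold change -0.90, SE 1.22). The dimmer had 2.84, 11.04 and 3.19 in the mutant and 1.02, 5.68 and 2.88 in the control (0.86, SE 0.94), so that the probe sets of this gene differ in sign and neither shows a difference beyond the spread of its samples. Of 4 genes for partners of the odorant receptors 0 rose and 0 fell by limma, at an unadjusted p under 0.05 also 0, and by the methods' test after adjustment 0, with a median of -0.37. The odorant co-receptor Orco was at 21.7 to 102 over all 6 samples, and the one with the smallest p was Obp28a (log2 fold change -1.22, SE 0.87, limma adjusted p 0.525).

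**Figure D3:**
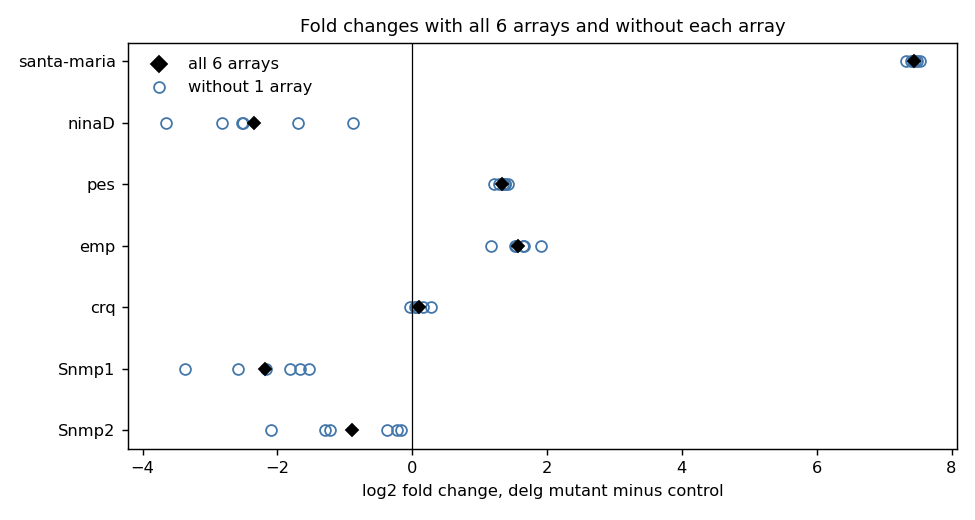
Log2 fold change (delg mutant minus control) of each receptor gene with all 6 arrays (diamonds) and with 1 array left out (6 open circles for each gene). The values of santa-maria stay between 7.33 and 7.53 and those of pes between 1.21 and 1.42, while those of ninaD run from -3.65 to -0.88.

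The fly genome holds further genes of the CD36 family that carry only a number, and 6 of 7 genes written down for the rest of the family could be read; dsb was not analysed here. They were listed to complete the family and not for their values, although earlier results of these data were known. By limma 2 of them rose and 0 fell (0 also at an unadjusted p under 0.05), beside the 4.45% and 3.75% of all genes, and 5 of 6 lay above 0, with a median log2 fold change of 0.86. The median was 0.55 without control replicate 3. In 3 of the 6 every mutant sample lay above every control sample, beside 14.5% of all genes. What the proteins of these 6 genes do is not given in the sources used here.

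CG7227 gave 816, 1345 and 878 in the mutant and 75.8, 84.9 and 95.7 in the control. The lowest mutant sample was far above the highest control, all 6 signals were above the median of their array, and the log2 fold change was 3.54 (SE 0.28, limma adjusted p 4.61e-04, at most 0.00823 without 1 sample). CG3829 gave 5085, 6432 and 5731 in the mutant and 1658, 1056 and 1431 in the control. The groups did not overlap, and the log2 fold change was 2.07 (SE 0.21, limma adjusted p 0.00147, at most 0.0176 without 1 sample). A dimmer probe set of CG3829, below the median of the array in all 6 samples, had a log2 fold change of 1.45 (SE 0.88, limma adjusted p 0.443).

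CG2736 showed no difference beyond the spread of its samples, with 15654, 17166 and 16683 in the mutant and 22369, 13809 and 16101 in the control. The genotypes overlapped, with a log2 fold change of -0.05 (SE 0.23, limma adjusted p 0.943) that turned to 0.09 with each array centred on its median. CG40006 had 454, 619 and 521 in the mutant and 281, 371 and 374 in the control. All mutant samples lay above all controls, yet the log2 fold change of 0.64 (SE 0.24) did not pass the test (limma adjusted p 0.180). CG10345 (log2 fold change 1.09, SE 0.96) and CG31741 (0.38, SE 1.04) were at signals of 3.50 to 81.7 and overlapped between the genotypes.

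**Figure D4:**
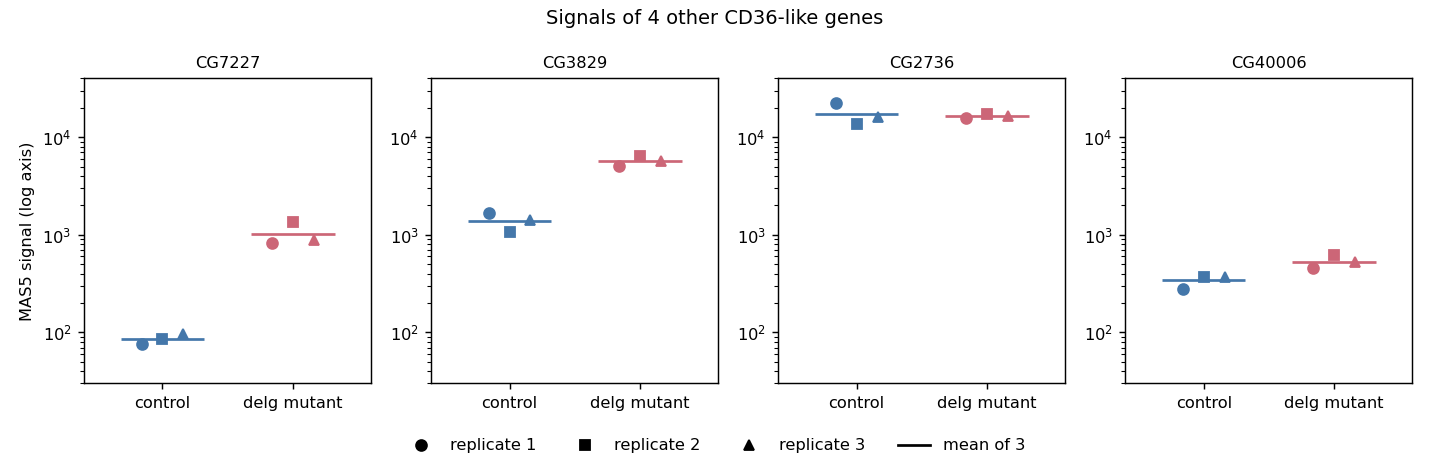
MAS5 signal (log axis) of the 4 other CD36-like genes with signals above the array median in all 6 samples, with 1 point for each sample and a line at the mean of 3. CG7227 and CG3829 are higher in each mutant sample than in each control, CG40006 is so by a smaller step, and CG2736 overlaps at 13809 to 22369.

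Several genes of the family neighbour each other on the assembly Release 6 plus ISO1 MT, by its table of genes, with 0 other protein-coding genes between them. One such run on chromosome arm 2R is CG2736, emp and CG3829, in this order. In it emp and CG3829 were higher in the mutant by 1.57 and 2.07 on the log2 scale, while CG2736 beside emp had -0.05. On arm 2L pes lies next to CG7227, and these were higher by 1.34 and 3.54. Also on arm 2L ninaD lies next to CG31741, both at low or scattered signals, with -2.35 (SE 1.33) and 0.38 (SE 1.04). The gene with the largest change, santa-maria, is not in such a run: 56 protein-coding genes lie between it and pes. The differences between neighbours were not tested. The probe sets of crq, emp and pes carry the suffix _s_at, which Affymetrix gave to probe sets whose probes can match several transcripts, and what part another transcript had in their signals was not tested.

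**Figure D5:**
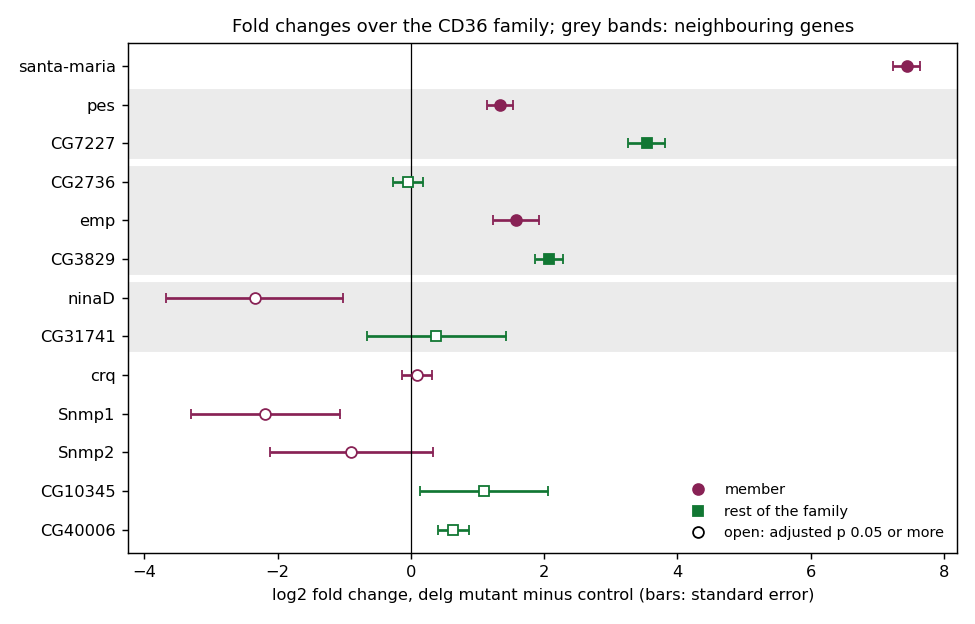
Log2 fold change (delg mutant minus control, bars are standard errors) of the 7 receptor genes (circles) and of 6 further CD36-like genes (squares), with grey bands around genes that neighbour each other and open symbols where the adjusted p from limma was 0.05 or more. The filled symbols, santa-maria at 7.44, CG7227 at 3.54, CG3829 at 2.07, emp at 1.57 and pes at 1.34, all lie to the right of 0.

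For the 3 receptor genes past the threshold, the genes with the most similar pattern over the 6 samples were sought among 5131 other genes with a mean log2 signal at or above the median of all probe sets and a range of at least 1 on the log2 scale. Pearson's r over the 6 samples is given as a description, because the step between the genotypes alone makes it high. It was above 0.99 for 39 genes with santa-maria, 52 with emp and 21 with pes. The most similar to santa-maria were CG9812 (r = 0.999), CG2201 (0.999) and msn, a kinase of the JNK pathway (0.998), with log2 fold changes of 7.54, 4.04 and 1.22. The most similar to emp were KrT95D (0.999), hng3 (0.998) and Exd2 (0.998), with log2 fold changes of 1.47, 2.72 and 1.0004. Each of these was lowest in control replicate 2, as emp was, but they were picked for following emp over these same samples. The most similar to pes were psh, the protease Persephone of the Toll pathway (0.999), AANATL2 (0.998) and Chsy, a chondroitin sulfate synthase (0.997), with log2 fold changes of 1.07, 4.196 and 2.89.

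Some genes known from the end of larval life differed between the genotypes as well. Of 18 such genes 4 rose and 0 fell by limma (1 was lower at an unadjusted p under 0.05), with a median log2 fold change of 2.38. This median rests on control replicate 2, without which it was 0.22, while 5 rose and 1 fell, the glue protein gene Sgs1. With 1 of the other samples left out 2 to 4 rose, 2 of them without mutant replicate 3, and 0 fell. The nuclear receptor gene Eip78C, which responds to ecdysone, had 2455, 2703 and 2693 in the mutant and 44.4, 24.4 and 12.6 in the control (log2 fold change 6.77, SE 0.44, limma adjusted p 2.57e-04), with no overlap of the genotypes. Another nuclear receptor gene, Hr4, had 609, 545 and 894 in the mutant and 2.57, 42.6 and 7.09 in the control (log2 fold change 6.18, SE 0.93, limma adjusted p 0.00699, and 0.0580 without mutant replicate 3), read from the brightest of its 3 probe sets, whose mean gave 3.15. What part larval stage had in the levels of the receptor genes was not tested.

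Markers of the fat body and of tissues other than blood gave 0 calls with all 6 samples, and 3 once control replicate 2 was left out. Among those of the fat body, salivary gland, midgut, muscle, epidermis and trachea, nervous system and photoreceptors, imaginal discs and testis, 0 rose and 0 fell by limma with them all. Without control replicate 2 the fat body markers bmm (log2 fold change -1.24, limma adjusted p 0.00785), a lipase, and AkhR (-0.64, limma adjusted p 0.0375), the receptor of adipokinetic hormone, fell, as did Sgs1 among those of the salivary gland, and bmm also fell with array weights (limma adjusted p 0.0365). With all 6 samples and an unadjusted p under 0.05, 3 of the salivary gland and 1 of the nervous system were lower and 1 of the discs was higher. The smallest p of each list was that of bmm (log2 fold change -0.80), ng1 (-2.74), lambdaTry (-2.01), Mlc2 (-1.53), verm (1.27), para (-2.22), ap (0.75) and ProtA (-0.93), in the order of the lists.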

How the data were processed

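Fat body RNA of 6 larval samples, called biological replicates by the study, was hybridised to Affymetrix Drosophila Genome 2.0 arrays. The values deposited by the authors are intensities on a linear scale, MAS5 signals from GCOS 1.4, with a mean of 500 once 2% of the probe sets are trimmed at either end. Of 18952 probe sets, 183 controls were set aside and 18769 tested, as log2 of the signal with nothing added or filtered. The array annotation gave 1 symbol to 13647 of these, several to 402 and none to 4720, and symbols were brought up to date by gene number. For a gene with several probe sets the brightest by mean log2 signal stood for it.

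The genotypes were contrasted in limma 3.58.1 under R 4.3.3 (eBayes with an intensity trend), and p-values were adjusted after Benjamini and Hochberg over all probe sets, with a threshold of 0.05. Precision is limited by how many arrays there are, and an exact permutation test of 3 against 3 cannot go below 0.1. On simulated data of this comparison with 18769 probe sets, 2.03%, 19.5% and 48.2% of changes by a log2 of 1, 2 and 4 were recovered, and 3.67% of calls were false. Changes of these sizes numbered 345, 302 and 353 over 5 simulations, a smaller share than that of the genes called in the data. The adjusted threshold is stricter when fewer probe sets change, so these percentages do not give the recovery in the data. The members and the lists were chosen with earlier results of these data known. The text names the members, the rest of the family, from each other list up to 2 non-overlapping genes past the threshold in a direction or else the smallest p, and the 3 genes most like each member past it. NimC2, NimC3, cathD, Hml, He, NimC1, PPO1, PPO2, Ppn, AkhR, Sgs1, hll, Acsl, ninaB, Pdh, rdhB and Orco were named after their values were seen. Alternatives were median centring, quantile normalization, 100 added, the brighter probe sets, a replicate block, no trend, array weights, the methods' two-tailed test with equal variances, averaging the probe sets of each gene and leaving out each array.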

Additional observations from a re-analysis of the deposited data

How the results depend on the processing

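Of 1110 values recomputed under another setting 937 kept their direction and their side of the threshold, or their count within the limit of 1.5 times, and 7 changed sign. Some settings, such as no trend and the methods' test, reuse the same means, so no direction could change there. Many counts were 0 in every setting, and a receptor count of 2 in place of 3 lies within that limit. The number 937 is therefore no measure of how firm the results are. The 7 with changed sign lay near 0 or at low signals: crq was at -0.000740 after quantile normalization and at -0.0319 to 0.27 with 1 sample left out, CG2736 at 0.0941 with centred arrays, 0.17 after quantile normalization and -0.20 to 0.15 with 1 sample left out, and CG31741 at -0.49 to 0.88 with 1 sample left out. The cause was not tested. The receptor genes were picked with this same contrast known, so their calls under other settings are a description and no test of them. Of these genes, santa-maria stayed past the threshold in every setting run. The count of receptor genes past it as higher was 3, and 1 without the intensity trend of limma, where pes (1.34, limma adjusted p 0.0864) and emp (1.57, limma adjusted p 0.164) dropped out. It was 2 to 3 with 1 sample left out, and emp lay between 1.17 and 1.91. By the methods' test after adjustment it was 2, without emp. CG7227 and CG3829 stayed past the threshold in every setting run.

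The main test did not use the replicate numbers as pairs. Deviations from the group means of same-numbered samples correlated at -0.041, -0.066 and -0.0068. With 3 samples in each group, such values cannot exclude that the numbers pair the samples. With the number as a replicate block emp kept its value of 1.57 but not its call (limma adjusted p 0.0736), which left 2 receptor genes, and over all genes 338 were higher and 215 lower. Over all genes the counts were 106 and 57 without the trend, 852 and 857 with array weights, 137 and 107 by the methods' test after adjustment and 1227 and 1250 before it, and 287 were lower with centred arrays. With 1 sample left out they were 178 to 714 and 122 to 633, the lowest without mutant replicate 3 and the highest without control replicate 2. Of 65 genes on the other lists 8 were higher and 1 lower. The higher ones were 5 with the block, 2 without the trend, 3 by the methods' test after adjustment and 3 to 10 with 1 sample left out. The lower ones were 2 after quantile normalization, 3 among the brighter probe sets, 0 without the trend, 2 with array weights, 0 by the methods' test after adjustment, 5 before it and 0 to 4 with 1 sample left out. Signals below the array median, as for ninaD, Snmp1 and Snmp2, limit what these arrays can show.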
